A study of Mus musculus with 17 samples.

Results

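The amino acid transporter genes described here are the 61 genes, of 25198 in the count table, whose symbols place them in the solute carrier families Slc1, Slc3, Slc6, Slc7, Slc36, Slc38 and Slc43. The rule reads the gene symbol and uses no measured value. RNA was sequenced from antral follicles of CD1 mice, 16 days old, that had grown for 8 days in eIVFG (encapsulated in vitro follicle growth). The 6 Tyrphostin libraries came from follicles exposed for 4 hours to hCG (chorionic gonadotropin, an ovulation trigger) together with 10 µM Tyrphostin-AG1478 in DMSO, which blocks the kinase of the EGF receptor, with follicles in triplicate per sample. The 11 libraries labelled Control carry the same treatment text, so whether they received hCG and DMSO is not given in the sources used here. Batch 1 held 6 Control and 3 Tyrphostin libraries, and batch 2 held 5 and 3. The 11 Control libraries also fall into 5 sets by library name. Nothing says that libraries came from separate animals or cultures, so p-values measure the spread between these libraries, which may be technical.

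Cells take up amino acids through carriers that differ in substrate and in what drives them. Light chains of the Slc7 family reach the cell surface only when joined to a heavy chain of the Slc3 family, and they exchange one amino acid for another. Carriers of the Slc38, Slc6 and some of the Slc1 families use the sodium gradient to concentrate amino acids, and the resulting pool drives the exchangers. In a follicle, granulosa cells take up amino acids that pass to the oocyte through gap junctions, and the oocyte itself takes up glycine as an osmolyte. Several carrier genes are targets of the transcription factor ATF4, which is made when amino acids are short and binds C/EBP-ATF response elements.

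The promoters of the light chain genes Slc7a11 and Slc7a8, which had the lowest adjusted p of the carriers in the treatment comparison, are shown first. They are RefSeq sequences on GRCm38.p6, from 250 bases before to 50 bases after the annotated start, read along the gene. The Slc7a11 window lies at chr3:50443564-50443863 (minus strand) and the Slc7a8 window at chr14:54781837-54782136 (minus strand). Capitals mark matches on either strand to 4 motifs: TGATGNAA (the core of the C/EBP-ATF response element), TGACGTCA (the cyclic AMP response element), TGANTCA (the AP-1 site) and TGACNNNGC (the core of the antioxidant response element, which can overlap the cyclic AMP element).
Slc7a11: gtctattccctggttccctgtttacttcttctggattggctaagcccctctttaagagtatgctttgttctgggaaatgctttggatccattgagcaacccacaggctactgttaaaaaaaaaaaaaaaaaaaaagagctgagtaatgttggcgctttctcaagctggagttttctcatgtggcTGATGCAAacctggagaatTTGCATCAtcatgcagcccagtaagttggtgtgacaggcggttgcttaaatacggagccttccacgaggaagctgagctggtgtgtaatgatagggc
Slc7a8: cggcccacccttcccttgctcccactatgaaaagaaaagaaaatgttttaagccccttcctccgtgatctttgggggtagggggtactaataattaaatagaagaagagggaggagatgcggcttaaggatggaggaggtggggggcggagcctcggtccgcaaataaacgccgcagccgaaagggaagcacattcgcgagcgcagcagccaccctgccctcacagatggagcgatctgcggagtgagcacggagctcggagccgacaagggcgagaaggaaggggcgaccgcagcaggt

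The Slc7a11 window held 2 matches to TGATGNAA, which began 66 and 47 bases before the start and lay on opposite strands. No match to any of the 4 motifs was found in the Slc7a8 window. Of 64 windows for 43 of the 61 transporter genes, 5 held TGATGNAA (7.81%), against 3.97% of all 32851 windows of the same length. Those 5 belonged to Slc7a11, Slc7a7, Slc1a4 and Slc6a21. The other motifs were found in 1.56% (TGACGTCA), 14.1% (TGANTCA) and 17.2% (TGACNNNGC) of the transporter windows and in 1.79%, 7.81% and 12.4% of all windows. Windows of a gene can overlap, so a TGATGNAA match of Slc7a7 and the TGACNNNGC match of Slc7a6 were each counted again in a further window. A match describes these letters and is not evidence of a bound site.

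Library totals ran from 1820545 to 8291024 counts, so a floor of 3 counts stood at 0.362 to 1.65 CPM (a gene's counts scaled to a fixed library total; CPM of genes also carry edgeR's TMM scaling). The granulosa genes Inha and Inhba had medians of 44300 and 23300 CPM in Control libraries, while Foxl2 and Amh were at or near 0, with medians of 0.667 and 0 CPM. The 9 granulosa markers summed to 62500 to 81300 CPM in Control and 52800 to 78200 CPM in Tyrphostin libraries. Of the 7 tested, 5 were called, all higher with Tyrphostin: Cyp19a1 (median 155 CPM in Control and 792 CPM in Tyrphostin libraries), Hsd17b1, Nr5a2, Kitl and Fshr. Over all 9603 genes tested 10.6% were called, 4.35% higher. The part of these marker differences in the results below was not tested. The 12 oocyte markers summed to 27.2 to 190 CPM in Control and 32.1 to 305 CPM in Tyrphostin libraries, with 0 of the 10 tested called. The 9 theca and stroma markers summed to 253 to 2160 and 267 to 3040 CPM, with 0 of 8 called. Among them the medians of Cyp17a1 were 69 CPM in Control and 170 CPM in Tyrphostin libraries, and those of Col3a1 were 276 and 245 CPM. In lists this short, 0 calls lie near the share of all genes and do not show that these cells were equal in the groups. The 5 immune markers summed to at most 36.4 CPM, with Cd52 at a median of 0, and the 5 endothelial markers to at most 89.5 CPM. Control 6 had the fewest counts, and Control 7 and Tyrphostin 5 had the most theca and stroma signal of their groups. Fewer cells of a type and less RNA per cell cannot be told apart in these whole follicles.

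Most carrier genes were scarce or silent in these follicles. Of the 61 genes, 24 had enough counts to be tested and 37 did not. All 37 had no count in at least 1 library, and 28 had under 10 counts in every library. The highest count among the untested genes was 36, for Slc7a4 in Control 8. Slc7a12 and Slc7a13, light chains best known from kidney, had 1 and 2 counts over the 17 libraries together. Slc38a3, a glutamine carrier described in cumulus cells, reached at most 10 counts, and no change in such genes was detectable at this depth. By family, 7 of 15 Slc7 genes, 7 of 11 Slc38 genes, 4 of 19 Slc6 genes, 2 of 7 Slc1 genes, 2 of 4 Slc36 genes, 1 of 2 Slc3 genes and 1 of 3 Slc43 genes were tested.

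Levels were compared between genes as CPM per kb of exon (GENCODE M21), which corrects roughly for gene length. The length joins the exons of all annotated transcripts of a gene. It can exceed that of the transcripts present, so levels between genes are approximate. Slc7a8, a light chain that exchanges large and small neutral amino acids, had the highest level of the 61 genes, with a median of 5000 CPM per kb in Control libraries (range 1710 to 8100). Slc3a2, the heavy chain that carries it to the surface, followed at 1260 CPM per kb (633 to 1490). The ranges of these genes did not overlap. The next was Slc38a2, which imports small neutral amino acids with sodium, at 155 CPM per kb (138 to 178), below every library of Slc3a2. Slc6a6, the taurine transporter, stood at 58.1 CPM per kb, Slc7a1, an arginine and lysine carrier, at 30.3, and Slc7a6, a light chain that exchanges arginine for neutral amino acids, at 28.9. The ranges of these 3 genes overlapped. The heavy chain of the other heteromeric system, Slc3a1, had a median of 0.296 CPM per kb, and Slc7a5, the light chain best known from dividing cells, had 0.635. In counts, Slc7a8 ranked from 2 to 15 among all genes in every one of the Control libraries and from 4 to 13 in the Tyrphostin libraries.

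**Figure D1:**
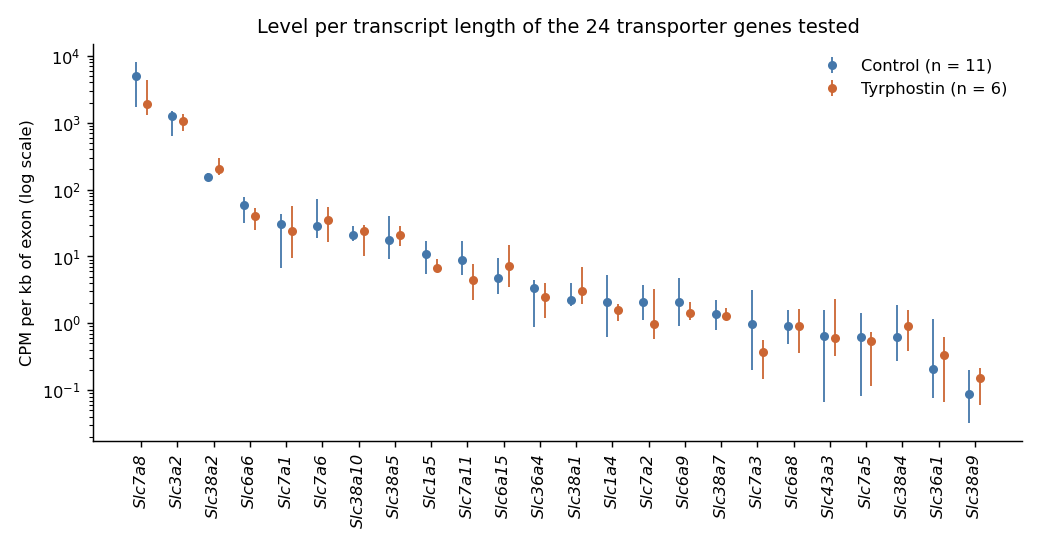
Level per joined exon length of the 24 transporter genes tested, in order of their Control median. The y axis is CPM per kb of exon on a log scale, points are medians and bars run from the lowest to the highest library (11 Control, 6 Tyrphostin). Slc7a8 (5000 CPM per kb in Control) and Slc3a2 (1260) lie far above the other genes.

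The main comparison asked which carrier genes differed with Tyrphostin once the batch was accounted for. Slc7a11, Slc7a8 and Slc7a3 fell and Slc6a15 rose, while the other 20 genes tested did not pass the threshold (edgeR's quasi-likelihood test, adjusted p under 0.05). So 4 of 24 were called (16.7%), 3 lower (12.5%) and 1 higher (4.17%). Over all 9603 genes tested 10.6% were called, 6.25% lower and 4.35% higher. The 4 calls thus stood near the background share. With total-count scaling, which moved the median of all genes by 0.15, 5 were called: Slc6a15, Slc38a1 and Slc38a2 higher and Slc7a11 and Slc7a8 lower, so that the split turned to 3 higher and 2 lower, with a median of 0.05. DESeq2 called 6. In the main fit the median log2 fold change of the 24 genes was -0.1, against 0 over all genes, and 12 values were above and 12 below 0. The count was 2 without Control 1, Control 4, Tyrphostin 1 or Tyrphostin 6, and no gene had groups that did not overlap in both batches (over all genes, 1.12% did so higher and 2.21% lower). The share of all genes with groups apart in a single batch was not computed, so such cases below are description only.

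The heteromeric exchangers were described first. Slc7a11, on chromosome 3 (GRCm38, 49892526 to 50443614, minus strand), imports cystine in exchange for glutamate and so supplies the cysteine of glutathione. In batch 1 its level in Control libraries ran from 74.1 to 129 CPM with a median of 117, and the Tyrphostin libraries had 57.8, 39.3 and 68.1 CPM. All 3 lay below every Control library of that batch. In batch 2 Control libraries had 83.7, 229, 238, 151 and 159 CPM and Tyrphostin libraries 73.5, 109 and 30.8 CPM, so that here Tyrphostin 5 (109) overlapped Control 7 (83.7). Over both batches the level went from 138 ± 53.3 CPM (SD; n = 11 libraries) to 63 ± 27.7 CPM (SD; n = 6 libraries), a log2 fold change of -1.14 ± 0.24 (SE; adjusted p in edgeR = 0.00331). It was -0.99 ± 0.25 in batch 1 (adjusted p in edgeR = 0.0184) and -1.28 ± 0.43 in batch 2 (adjusted p in edgeR = 0.262). The batch 1 call was lost without Tyrphostin 1 (adjusted p in edgeR = 0.0528) or Tyrphostin 2 (0.102). Over both batches Slc7a11 was called in all 17 of 17 leave-one-out fits.

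Slc7a8, on chromosome 14 (GRCm38, 54722209 to 54781946, minus strand), is the most abundant carrier described above. In batch 1 Control libraries had 25000 to 40500 CPM with a median of 34100, and Tyrphostin libraries 19200, 8990 and 21600 CPM. These 3 were below all 6 Control libraries of the batch. In batch 2 Control libraries had 8550, 14600, 20400, 12900 and 15000 CPM and Tyrphostin libraries 9880, 7220 and 6540 CPM, and Control 7 (8550) lay inside the Tyrphostin range. The mean was 24400 ± 10800 CPM (SD; n = 11 libraries) in Control and 12200 ± 6480 CPM (SD; n = 6 libraries) with Tyrphostin, which gave a log2 fold change of -0.92 ± 0.21 (SE; adjusted p in edgeR = 0.00655). The effect was -0.97 ± 0.3 in batch 1 (adjusted p in edgeR = 0.059) and -0.86 ± 0.32 in batch 2 (adjusted p in edgeR = 0.324), and these differed by 0.12 ± 0.42. Without the batch term the value was -0.99 and the call was lost (adjusted p in edgeR = 0.0937). Slc7a7, its neighbouring family member on chromosome 14, had at most 6 counts in any library.

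Slc3a2, the shared heavy chain on chromosome 19, was not called. Control libraries of batch 1 had 4190 to 5270 CPM with a median of 4570, and Tyrphostin libraries 4790, 3520 and 3920 CPM. In batch 2 the values were 4890, 3850, 4960, 2240 and 3500 CPM in Control and 3680, 2670 and 3740 CPM in Tyrphostin libraries. The groups overlapped in both batches, and the log2 fold change was -0.2 ± 0.17 (SE; adjusted p in edgeR = 0.536). Whether its effect differed from that of Slc7a8 was not tested. Per length, Slc7a8 exceeded Slc3a2 by 1.23 to 6.1 times in Control libraries and by 1.23 to 3.88 times in Tyrphostin libraries.

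The other light chains gave no call. Slc7a5 was near the detection floor, with 0.299 to 2.67 CPM (median 1.22) in Control and 0.43, 2.8 and 1.37 CPM in Tyrphostin libraries of batch 1. In batch 2 it had 3.67, 2.35, 3.91, 0.958 and 5.34 CPM in Control and 1.78, 2.43 and 2.24 CPM in Tyrphostin libraries. The groups overlapped, with a log2 fold change of -0.3 ± 0.43 (SE; adjusted p in edgeR = 0.736), and its highest count in any library was 25. Slc7a6 had a log2 fold change of 0.05 ± 0.22 (SE; adjusted p in edgeR = 0.924), with 149 ± 70.2 CPM (SD; n = 11 libraries) in Control and 152 ± 63.4 CPM (SD; n = 6 libraries) in Tyrphostin libraries.

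**Figure D2:**
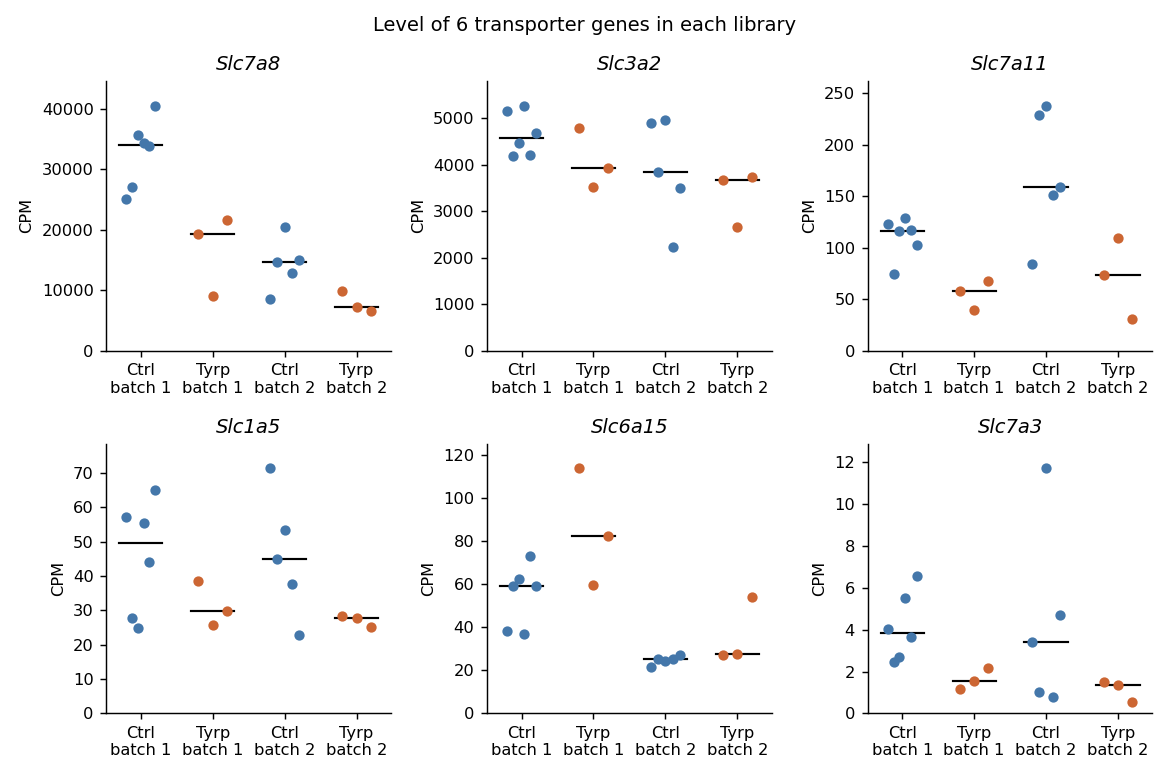
CPM of 6 transporter genes in each of the 17 libraries, by treatment (Control blue, Tyrphostin orange) and batch; points are libraries and lines are medians. Slc7a11 and Slc7a8 lie lower in all 3 Tyrphostin libraries of batch 1, and the Slc7a8 level also differs between the batches.

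The carriers of arginine, lysine and ornithine did not move as a group. Slc7a3, on chromosome X (GRCm38, 101079210 to 101086020, minus strand), was scarce: Control libraries of batch 1 had 2.45 to 6.57 CPM with a median of 3.86, and Tyrphostin libraries 1.15, 1.55 and 2.15 CPM. In batch 2 Control libraries had 3.41, 1.01, 11.7, 0.767 and 4.7 CPM and Tyrphostin libraries 1.51, 1.35 and 0.56 CPM. The groups were apart in batch 1 and overlapped in batch 2. Its log2 fold change was -1.52 ± 0.47 (SE; adjusted p in edgeR = 0.0407), with at most 27 counts in any library. The call was at the edge: it was lost in 11 of 17 fits without 1 library, namely Control 1, 4, 5, 6, 9 or 11 or Tyrphostin 1, 2, 4, 5 or 6, with an adjusted p of up to 0.105, and it held in 4 of 11 other alternatives.

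Slc7a1, the most abundant of these cationic carriers, had 349 to 502 CPM (median 468) in Control and 389, 651 and 616 CPM in Tyrphostin libraries of batch 1. In batch 2 it had 199, 135, 192, 76.5 and 115 CPM in Control and 174, 119 and 111 CPM in Tyrphostin libraries. Every batch 2 library lay below every batch 1 library, and within each batch the groups overlapped, with a treatment effect of 0.13 ± 0.2 (SE; adjusted p in edgeR = 0.75). Slc7a2, which is known for supplying arginine to nitric oxide synthesis, had a log2 fold change of -0.64 ± 0.29 (SE; adjusted p in edgeR = 0.172). It was -0.97 in batch 1 and -0.34 in batch 2, and the 3 Tyrphostin libraries of batch 1 (8.61, 9.32 and 6.63 CPM) lay below all Control libraries there (10.5 to 22.1 CPM). In batch 2 the groups overlapped, with 30.2, 27 and 5.41 CPM in Tyrphostin and 14.1 to 33.9 CPM in Control libraries.

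Of the Slc1 exchangers, Slc1a5, the main glutamine exchanger of many cells, had 24.8 to 65.1 CPM (median 49.7) in Control and 38.6, 25.8 and 29.7 CPM in Tyrphostin libraries of batch 1. In batch 2 Control libraries had 71.4, 45, 53.4, 37.6 and 22.8 CPM and Tyrphostin libraries 28.3, 27.8 and 25.2 CPM. Tyrphostin 1 stood above the other 5 Tyrphostin libraries, and the lowest Control library of each batch fell below the Tyrphostin libraries of that batch. The log2 fold change of -0.64 ± 0.23 (SE) missed the threshold (adjusted p in edgeR = 0.0705). It passed without Control 2 (0.0475), Control 3 (0.0373) or Control 11 (0.0326), and in DESeq2 (0.0485). Slc1a4, which exchanges serine, alanine and cysteine, had a log2 fold change of -0.47 ± 0.3 (SE; adjusted p in edgeR = 0.377). It was -0.98 ± 0.35 in batch 1 (SE, adjusted p in edgeR = 0.107) and 0.09 ± 0.43 in batch 2 (0.966).

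The sodium-coupled neutral carriers of the Slc38 family held 7 tested genes, none of them called. Slc38a2, the member that cells raise when amino acids are short, had 1410 ± 124 CPM (SD; n = 11 libraries) in Control and 1840 ± 408 CPM (SD; n = 6 libraries) in Tyrphostin libraries. The log2 fold change stood at 0.38 ± 0.15 (SE; adjusted p in edgeR = 0.111), and Tyrphostin 6 held its highest value at 2620 CPM. Slc38a2 passed the threshold in DESeq2 (0.38, adjusted p = 0.0263) and in edgeR with total-count scaling (0.53, adjusted p = 0.017). Slc38a1, a closely related glutamine and alanine carrier, had a log2 fold change of 0.55 ± 0.22 (SE; adjusted p in edgeR = 0.127), which was 0.28 without Tyrphostin 6. It passed the threshold without Tyrphostin 5 (adjusted p in edgeR = 0.0393) and with total-count scaling (0.0301). Slc38a1, Slc38a2 and Slc38a4 all lie on chromosome 15 (GRCm38) between positions 96571418 and 97055956. Slc38a9, the lysosomal carrier that reports arginine to the growth kinase mTORC1, stood at 1.6 ± 0.879 CPM (SD; n = 11 libraries) and 2.44 ± 1.08 CPM (SD; n = 6 libraries), with a log2 fold change of 0.53 ± 0.37 (SE; adjusted p in edgeR = 0.418). The values of Slc38a5, Slc38a7 and Slc38a10 lay between 0.01 and 0.05.

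Of the Slc6 family, Slc6a15, on chromosome 10 (GRCm38, 103367783 to 103419377, plus strand), imports branched-chain amino acids and proline with sodium. In batch 1 Control libraries had 37.1 to 73.4 CPM with a median of 59.3, and Tyrphostin libraries 114, 59.5 and 82.3 CPM. In batch 2 Control libraries had 21.5, 25.3, 24.3, 25.3 and 27.1 CPM and Tyrphostin libraries 27.3, 27.5 and 53.9 CPM. Tyrphostin 2 overlapped the Control libraries of batch 1, while in batch 2 the groups were apart, narrowly, between Control 11 (27.1) and Tyrphostin 4 (27.3). The log2 fold change was 0.6 ± 0.18 (SE; adjusted p in edgeR = 0.0369), with 0.65 in batch 1 and 0.55 in batch 2. The call was lost without Control 1 (adjusted p in edgeR = 0.06), Control 4 (0.0611), Tyrphostin 1 (0.149), Tyrphostin 3 (0.0584) or Tyrphostin 6 (0.152), and it held in 6 of 11 other alternatives.

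Slc6a6, the taurine transporter, gave different values in the batches. In batch 2 Control libraries had 491, 615, 525, 578 and 655 CPM and Tyrphostin libraries 207, 216 and 455 CPM, all below Control. In batch 1 Control libraries ran from 267 to 538 CPM with a median of 351 and Tyrphostin libraries had 403, 286 and 396 CPM, so the groups overlapped. The log2 fold changes were -0.96 ± 0.31 and -0.01 ± 0.24 (SE), and their difference of -0.95 ± 0.38 did not pass the threshold (adjusted p in edgeR = 1, unadjusted 0.0199). The overall value was -0.45 ± 0.21 (SE; adjusted p in edgeR = 0.196). Slc6a9, the glycine transporter that oocytes use, and Slc6a8, the creatine transporter, had log2 fold changes of -0.43 ± 0.27 and 0.07 ± 0.3 (SE). Exons of Slc6a9 overlap those of Ccdc24 and B4galt2 on the other strand, and the strand setting of the counting is not given in the sources used here.

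The proton-coupled carriers Slc36a1 and Slc36a4, which work mainly at lysosomes and other inner membranes, had log2 fold changes of -0.25 ± 0.5 and -0.31 ± 0.26 (SE; adjusted p in edgeR = 0.823 and 0.522). For Slc36a4 the value was -0.8 ± 0.28 in batch 1 (SE, adjusted p in edgeR = 0.0923) and 0.17 ± 0.39 in batch 2 (0.929). Slc43a3, a family member that carries purine bases in place of amino acids, had 0.26 ± 0.39 (SE; adjusted p in edgeR = 0.752).

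**Figure D3:**
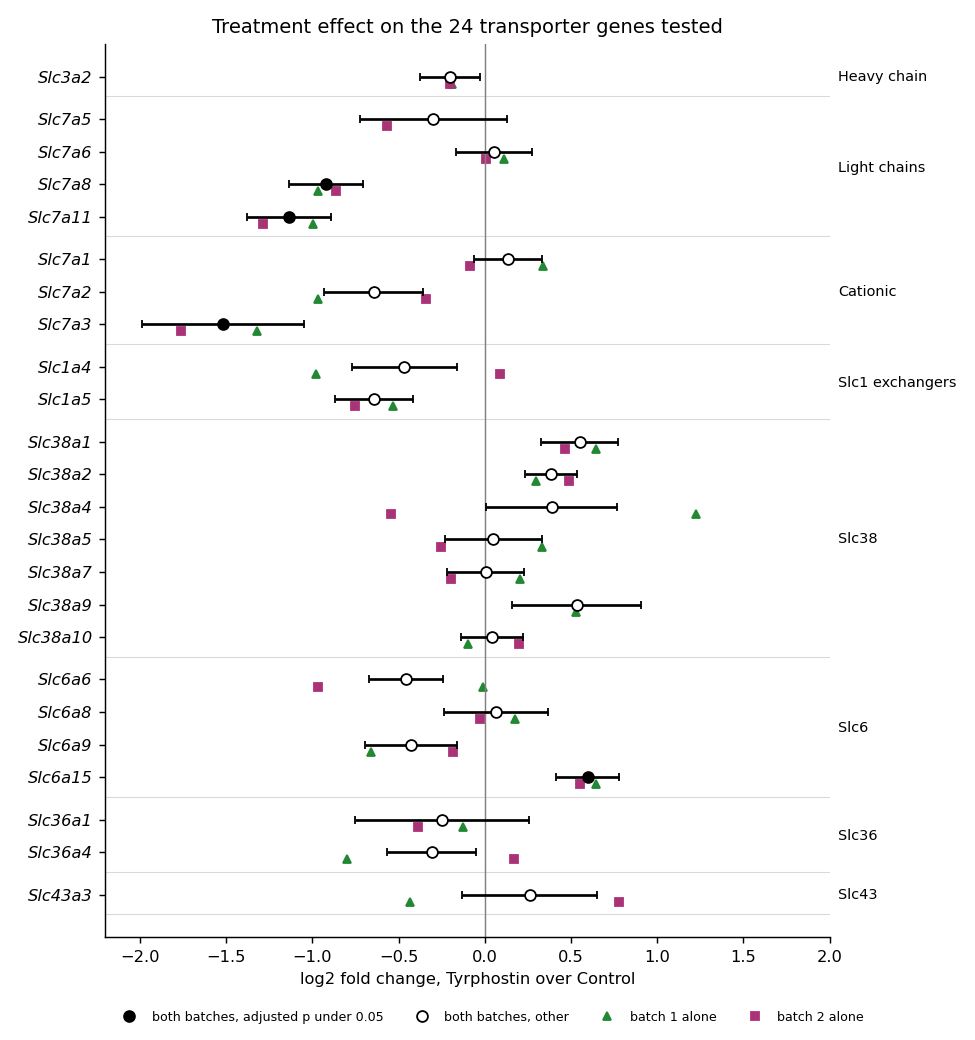
Treatment effect on the 24 transporter genes tested, grouped by role. The x axis is the log2 fold change of Tyrphostin over Control; circles with bars are the fit over both batches with its SE, triangles and squares are batch 1 and batch 2 alone. Slc7a11 (-1.14), Slc7a8 (-0.92) and Slc7a3 (-1.52) lie below 0 and Slc6a15 (0.6) above it in both batches.

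Within the batches alone, fewer genes were called. In batch 1 only Slc7a11 was called of 23 genes tested (4.35%), and it was lower. Of all genes 6.73% were called, 2.94% higher and 3.79% lower. In batch 2 0 of 24 were called in edgeR, against 0.621% of all genes (0.193% higher, 0.427% lower). At an unadjusted p under 0.05 there were 4 of 24, against 10.7% of all genes. The treatment effects of the batches were also compared directly. No gene of the 24 differed in edgeR's interaction test (0% of all genes), and 2 had an unadjusted p under 0.05, Slc38a4 and Slc6a6, against 3.56% of all genes. Slc38a4, a neutral carrier best known from placenta and liver, had log2 fold changes of 1.23 ± 0.42 in batch 1 and -0.54 ± 0.55 in batch 2. Its level was low, at 1.16 to 2.99 CPM in Control and 5.02, 3.42 and 6.83 CPM in Tyrphostin libraries of batch 1.

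Control libraries alone differed between the batches in 4 of 17 carrier genes (23.5%), against 14% of 6680 genes tested (7.26% higher and 6.77% lower in batch 2). Slc7a1, Slc6a15 and Slc7a8 were lower and Slc6a6 higher in batch 2. The log2 differences were -1.6 ± 0.24 for Slc7a1 (SE; adjusted p in edgeR = 0.000601), -1.12 ± 0.21 for Slc6a15 (0.00269), -1.17 ± 0.24 for Slc7a8 (0.00539) and 0.68 ± 0.2 for Slc6a6 (0.0357). For Slc7a1, Slc7a8 and Slc6a15 every Control library of batch 2 lay below every one of batch 1. The Slc6a6 call was lost without Control 1, 2, 3, 4, 5, 8, 10 or 11, with an adjusted p of up to 0.0835. What the batches differ in is not given in the sources used here. In this comparison the theca and stroma markers summed to 253 to 721 CPM in batch 1 and 413 to 2160 CPM in batch 2, and the oocyte markers to 27.2 to 80.5 and 37.4 to 190 CPM. The part of these markers in the differences was not tested.

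**Figure D4:**
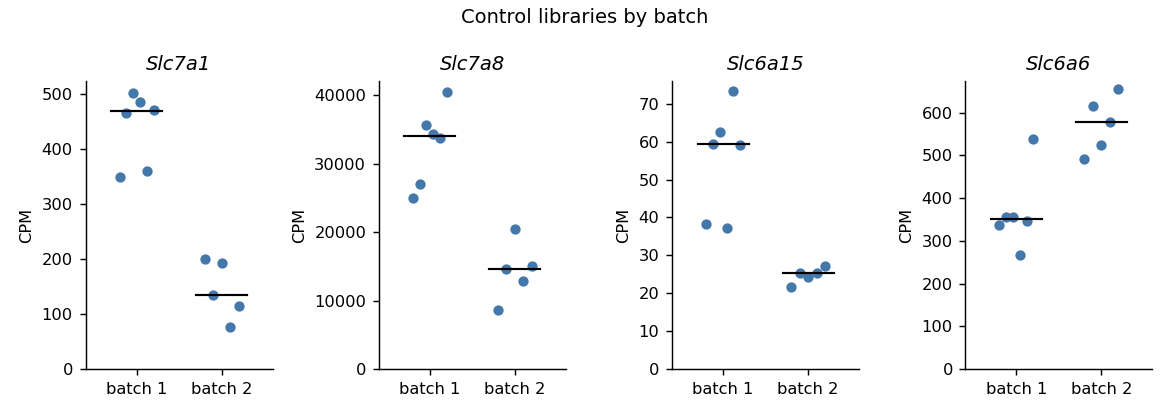
CPM of the 4 transporter genes that differed between batches among Control libraries (6 in batch 1, 5 in batch 2); points are libraries and lines are medians. Slc7a1, Slc7a8 and Slc6a15 are lower in all 5 libraries of batch 2, and Slc6a6 (491 to 655 CPM) is higher than in most of batch 1 (267 to 538 CPM).

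Genes that cells switch on when amino acids are short were then read beside the carriers. Of 25 such genes, many of them ATF4 targets for the synthesis of serine, asparagine and proline or for charging of transfer RNA, 24 were tested. This list and the lists below were chosen with earlier results of these data known, so their shares are descriptive. A total of 10 fell and 0 rose (edgeR adjusted p under 0.05), 41.7% lower against 6.25% of all genes. The median log2 fold change was -0.56, against 0 over all genes, and all 24 values were below 0. Carrier genes were not put in this list. The carrier Slc38a2, which cells also raise when amino acids are short, had a value above 0 (0.38 ± 0.15, SE; adjusted p in edgeR = 0.111). The 10 list genes that fell were Nupr1, Shmt2, Phgdh, Mthfd2, Asns, Aldh18a1, Eif4ebp1, Psat1, Gars and Nars. With total-count scaling 7 were called lower and 21 of 24 values were below 0, with a median of -0.42. The count was 6 without Tyrphostin 1, 2, 3 or 6, and 6 without Control 6, Control 7 and Tyrphostin 5 together. It was 4 with log10 total count as a covariate and 6 with no filter on low counts.

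Nupr1, a small stress-induced chromatin protein, went from 366 ± 147 CPM (SD; n = 11 libraries) to 116 ± 36.8 CPM (SD; n = 6 libraries), a log2 fold change of -1.65 ± 0.25 (SE; adjusted p in edgeR = 0.000117). In batch 1 Control libraries had 265 to 387 CPM with a median of 318, and Tyrphostin libraries 100, 166 and 135 CPM. In batch 2 they had 720, 266, 251, 567 and 309 CPM against 140, 83.3 and 71.4 CPM, and the groups were apart in both batches. Shmt2, the mitochondrial enzyme that takes a carbon from serine, was also apart in both, at 44.5 to 145 CPM in Control and 28.3 to 43.9 CPM in Tyrphostin libraries (log2 fold change -1.04 ± 0.21, SE; adjusted p in edgeR = 0.00228). Phgdh, the first enzyme of serine synthesis, changed by -1.41 ± 0.32 (SE; adjusted p in edgeR = 0.00533), and Mthfd2, of the mitochondrial folate pathway, by -0.81 ± 0.19 (SE; adjusted p in edgeR = 0.00685).

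Asns, asparagine synthetase, is shown as the textbook gene with an amino acid response element and was named after its values were seen. Its level in batch 1 was 153 to 313 CPM (median 172) in Control and 51.4, 83.6 and 57.2 CPM in Tyrphostin libraries. In batch 2 it was 159, 98.6, 441, 55.4 and 179 CPM in Control and 86.3, 63.9 and 111 CPM in Tyrphostin libraries. The groups were apart in batch 1 only, and the log2 fold change was -1.37 ± 0.33 (SE; adjusted p in edgeR = 0.0102). Control 9, the library with 441 CPM of Asns, also held the highest levels of Slc7a11 (238 CPM) and Slc7a3 (11.7 CPM). Control 8, with 229 CPM of Slc7a11, had 98.6 CPM of Asns and 1.01 CPM of Slc7a3. Whether these genes vary together was not tested. Atf4 itself had a log2 fold change of -0.13 ± 0.2 and Ddit3, a further stress factor, of -0.05 ± 0.23 (SE; adjusted p in edgeR = 0.755 and 0.937). In batch 1 alone 8 of 23 list genes were called lower (34.8%, against 3.79% of all genes) and 0 higher, with a median of -0.78. In batch 2 alone 0 of 24 were called, with 4 at an unadjusted p under 0.05 (10.7% of all genes) and a median of -0.36.

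The promoters of Asns (chr6:7693160-7693459, minus strand) and Nupr1 (chr7:126625421-126625720, minus strand) are printed for comparison with that of Slc7a11, from the same RefSeq table on GRCm38.p6. Here capitals mark TGATGNAA on either strand only.
Asns: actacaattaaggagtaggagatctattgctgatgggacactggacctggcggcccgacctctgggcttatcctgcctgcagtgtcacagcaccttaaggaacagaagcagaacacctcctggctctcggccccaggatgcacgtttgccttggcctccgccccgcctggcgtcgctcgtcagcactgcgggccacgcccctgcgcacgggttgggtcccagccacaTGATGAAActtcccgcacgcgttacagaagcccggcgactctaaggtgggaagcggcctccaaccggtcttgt
Nupr1: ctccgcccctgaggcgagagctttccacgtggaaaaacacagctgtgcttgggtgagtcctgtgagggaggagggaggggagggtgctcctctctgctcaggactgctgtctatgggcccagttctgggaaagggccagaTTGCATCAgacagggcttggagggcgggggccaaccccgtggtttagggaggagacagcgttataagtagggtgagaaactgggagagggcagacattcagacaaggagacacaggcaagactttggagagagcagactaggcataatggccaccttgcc

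The match began 23 bases before the start in Asns and 110 bases before it in Nupr1. Promoters were found for 22 of the 25 list genes, and 8 of these genes held the motif: Aars, Asns, Atf3, Chac1, Gars, Nupr1, Pycr1 and Trib3. By window it was 8 of 24, against 3.97% of all windows of the same length. Many list genes were chosen as ATF4 targets, so a higher share follows from the choice and is no separate evidence. Of the 10 genes that fell, Asns, Gars and Nupr1 held the motif, while the windows of Shmt2, Phgdh, Mthfd2, Psat1 and Aldh18a1 held none. No promoter was found for Eif4ebp1 and Nars.

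**Figure D5:**
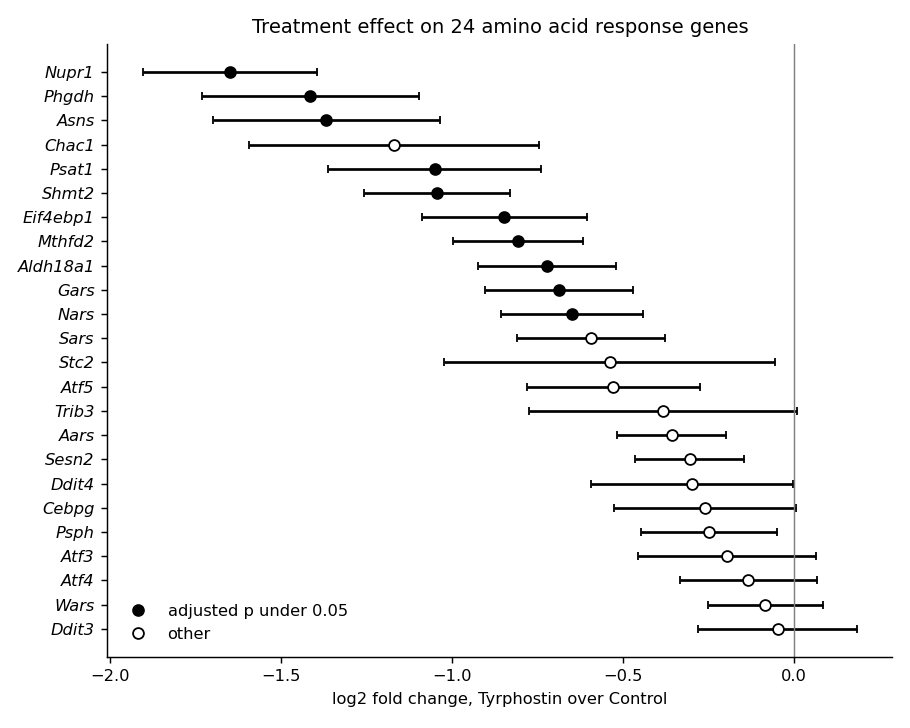
Treatment effect on 24 genes of the amino acid response, ordered by value. The x axis is the log2 fold change of Tyrphostin over Control with its SE as bars, and filled circles passed an adjusted p of 0.05 in edgeR. All 24 values lie below 0, from -1.65 (Nupr1) to -0.05 (Ddit3). Carrier genes, among them Slc38a2 (0.38), are not in this list.

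Genes that sense amino acids at the lysosome for mTORC1 gave 3 calls of 28 tested (10.7%), near the background of 10.6%, with a median of 0.13. Rragd, a Rag GTPase, fell from 210 ± 65.6 CPM (SD; n = 11 libraries) to 98 ± 27.6 CPM (SD; n = 6 libraries), a log2 fold change of -1.09 ± 0.21 (SE; adjusted p in edgeR = 0.00136). Flcn, folliculin, which acts on the Rag GTPases, rose from 21.2 ± 4.65 CPM (SD; n = 11 libraries) to 35.8 ± 8.13 CPM (SD; n = 6 libraries), by 0.73 ± 0.17 (SE; adjusted p in edgeR = 0.0056). Its Tyrphostin libraries were above every Control library in each batch. Sesn1, a sestrin, which holds mTORC1 back, rose by 0.84 ± 0.24 (SE; adjusted p in edgeR = 0.0254), a call that held in 6 of 11 alternatives. It was lost with Control sets summed, with the total-count covariate, with no batch term and with no filter (adjusted p in edgeR = 0.0831, 0.0708, 0.0598 and 0.065), and without Tyrphostin 2, 3 or 6 (up to 0.0713).

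Genes that use glutamine, glutamate and cysteine gave 3 calls of 12 tested (25%), all lower, against 6.25% of all genes lower, with a median of -0.04. Gclc, the catalytic subunit of the first enzyme of glutathione synthesis, changed by -1.08 ± 0.22 (SE; adjusted p in edgeR = 0.00206), with 22.1 to 67.3 CPM in Control and 13.2 to 23.9 CPM in Tyrphostin libraries. Its regulatory partner Gclm had a value of 1.17 ± 0.44 (SE; adjusted p in edgeR = 0.104) in the opposite direction and was not called. Ggct, of glutathione breakdown, changed by -1.35 ± 0.34 and Glul, glutamine synthetase, by -0.93 ± 0.26 (SE; adjusted p in edgeR = 0.0131 and 0.0234). The Glul call was lost without Tyrphostin 1, 3 or 5 (adjusted p in edgeR up to 0.0569) and with no batch term (0.0676), and the Ggct call with no filter (0.0908). The count was 5 without Control 7.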

How the data were processed

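RNA of 17 libraries was read by bulk Smart-Seq2 without molecular identifiers, per the labels' protocols. The deposited values are whole-number counts per gene that the authors made from their reads; the submitters' processing notes name STAR, HTSeq and GRCm38. Versions, annotation, strand setting and filters are not given in the sources used here. Groups and batches came from the labels. The transporter genes, the gene lists and the rule for named genes were chosen with earlier results of these data known. That rule allowed every tested transporter gene, with values in every library for those called and for Slc3a2, Slc7a5, Slc7a11 and Slc1a5, up to 4 called genes of lowest p in each other list, and the genes called, or else the 2 of lowest p, in the interaction and the Control batch difference. Values of further genes (among them Slc7a1, Slc6a6, Slc7a2, Slc38a4, Asns, Atf4, Ddit3 and Gclm) were given after they were seen.

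Counts were analysed in R 4.3.3 with edgeR 4.0.16: filterByExpr on treatment, TMM scaling, a robust quasi-likelihood fit with batch and treatment as terms, and Benjamini-Hochberg adjustment over all genes tested, with a threshold of 0.05. Each batch alone, the treatment by batch interaction and the batch difference among Control libraries were fitted likewise. CPM used TMM-scaled library totals, the floor of 3 counts used plain totals, and the SE is the log2 fold change over the root of its F statistic. Alternatives were DESeq2 1.42.0, limma-voom (limma 3.58.1), other scalings and filters, no batch term, log10 total count as a covariate, Control sets summed, 3 doubted libraries left out, a replicate block (Control and Tyrphostin 1 to 6), and each library left out in turn. The fit was run on simulated counts with known changes but no batch effect, so that check did not cover the batch term. Totals of 1820545 to 8291024 counts limit precision for scarce genes.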

Additional observations from a re-analysis of the deposited data

Results flagged for a closer look

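In each tested transporter gene, the CPM of the Control libraries of batch 1, of the Control libraries of batch 2 and of the 6 Tyrphostin libraries were examined by Dixon's gap for a single outlying library. Of 72 such groups 9 held one, where chance gives about 1 in 20, or 3.6. Control 6, the library with the fewest counts, was the highest of batch 1 for Slc38a10 (186 CPM, others 110 to 136), Slc6a6 (538 CPM, others 267 to 355) and Slc6a9 (24.1 CPM, others 5.08 to 11.6). Control 3 was the highest of batch 1 for Slc38a1 (52.6 CPM, others 31 to 38.4). Control 7 was the lowest of batch 2 for Slc36a4 (5.77 CPM, others 20.4 to 25.5) and Slc6a9 (4.72 CPM, others 10.4 to 12.4). Among Tyrphostin libraries, Tyrphostin 1 was the highest for Slc1a5 (38.6 CPM, others 25.2 to 29.7), Tyrphostin 2 for Slc38a7 (7.15 CPM, others 4.58 to 5.49) and Tyrphostin 6 for Slc38a2 (2620 CPM, others 1480 to 1870).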

How the results depend on the processing

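The count of 4 transporter genes called was 2 with limma-voom, with log10 total count as a covariate and with Control sets summed, 1 without the batch term, 5 with total-count scaling and 6 with DESeq2. With a replicate block it was 2, of which Slc7a11 was among the 4 and Slc38a5 was not (0.98, adjusted p in edgeR = 0.0189). That block left out all Control libraries of batch 2, so its treatment effect rested on batch 1 alone. The deviations of same-numbered libraries correlated at 0.32, 0.08, 0.05, 0.1, 0.03 and 0.11, and 2 of 6 Tyrphostin libraries correlated best with their own number. Numbers 4 to 6 set a Control library of batch 1 against a Tyrphostin library of batch 2, so they could not show a pairing. Whether the Control sets pair with Tyrphostin libraries was not tested. Over all genes the count of 1018 was 619 without the batch term, 678 with the covariate and 624 with the replicate block. The 10 response genes called lower became 6 with no filter, 4 with the covariate and 6 without Control 6, Control 7 and Tyrphostin 5. The 3 sensing genes became 5 with total-count scaling, and the 3 glutamine and glutathione genes 5 without those 3 libraries. In batch 1 the 1 transporter gene called became 2 with total-count scaling and 2 with no filter. With no filter, batch 2 gave 1 transporter gene and 222 genes in all (61 with the filter), and the interaction 79 genes (0 with it). Leaving out each library in turn gave 2 to 5 transporter genes and 708 to 1314 genes in all, 6 to 11 response genes, 2 to 4 sensing genes and 2 to 5 glutamine and glutathione genes. Within batch 1 it gave 0 to 3 transporter genes and 394 to 687 genes in all, within batch 2 0 and 11 to 221, and between Control batches 3 to 5 and 637 to 1025. Signs turned only for genes that were not called. With limma-voom Slc36a1 was 0.027, Slc38a10 -0.0109 and Slc6a8 -0.12, and without the 3 libraries Slc36a1 was 0.10. With the replicate block Slc38a10 was -0.089, Slc6a8 -0.16 and Slc6a6 0.036 (-0.01 in the fit of batch 1 alone). With RLE size factors Slc38a7 was -0.000351. With libraries left out in turn, Slc38a10 ran from -0.046 to 0.20, Slc38a5 from -0.032 to 0.28, Slc38a7 from -0.090 to 0.10, Slc6a8 from -0.31 to 0.23 and Slc7a6 from -0.10 to 0.19. The cause was not tested. With the replicate block the calls of Slc7a8, Phgdh, Flcn and Sesn1 were also lost (adjusted p in edgeR = 0.0656, 0.0588, 0.0912 and 0.129), and Slc7a11 was called in 11 of 11 alternatives. Total-count scaling moved the median of all genes by 0.15, with 715 genes called higher and 396 lower in place of 418 and 600. Scarce genes such as Slc7a3 and Slc7a5 are limited by depth.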

Other observations

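Slc6a20b, a proline carrier whose symbol ends in a letter and so lies outside the naming rule, had 36.7, 41.6, 24.2, 38.3, 26.8 and 4.93 CPM in the Control libraries of batch 1 and 17.1, 26.7, 25.6, 38.1 and 35 CPM in those of batch 2. The Tyrphostin libraries had 37.3, 55.2, 26.3, 36.1, 42.9 and 37.1 CPM, and the groups overlapped. Its close relative Slc6a20a did not exceed 1.34 CPM in any library.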
